A study of Mus musculus with 30 samples.

Results

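Pancreas RNA was compared between mice that carry i4F and lack Ink4a/Arf and mice that carry i4F with the locus intact, 5 libraries against 5, which are 10 of the 30 libraries of the study, each library standing for 1 mouse. The mice labelled i4F_Ink4a/Arf_KO and called KO here, and the i4F mice, labelled i4F_WT, were all C57BL/6 and all drank 0.2 mg/ml doxycycline for 7 days, so the factors were induced in both groups. The labels give no age or sex, no untreated pancreas is compared here, and the RNA is of whole tissue. The remaining libraries are of a pancreas group labelled p53 KO and of kidneys of 3 genotypes.

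i4F is a doxycycline-inducible cassette for 4 transcription factors of reprogramming, which are Klf4, Myc, Sox2 and Oct4 (encoded by Pou5f1). The Cdkn2a locus, called Ink4a/Arf, encodes p16Ink4a, an inhibitor of the cyclin D kinases CDK4 and CDK6, and p19Arf, which holds off the p53 inhibitor Mdm2. Both products are known as barriers to reprogramming and as parts of cell senescence. The exocrine pancreas is made mostly of acinar cells, which fold and secrete large amounts of digestive enzymes through the endoplasmic reticulum (ER). Load on that compartment is met by the unfolded protein response, which induces chaperones such as BiP (gene Hspa5).

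Values are FPKM as deposited, and all fold changes are KO minus i4F on the log2(FPKM + 1) scale, which understates the change of genes near 1 FPKM. A few secreted enzymes dominated every library: the 10 most abundant genes made up 53.6 to 63.6% of the summed FPKM in the KO libraries and 54.6 to 64.7% in the i4F libraries. Results are therefore given as deposited, after median-of-ratios scaling, called scaled, or on both scales. The scaling factors ran from 0.81 to 1.03 in the KO libraries and from 0.75 to 1.59 in the i4F libraries. By Xist and Ddx3y, KO library 1 and i4F libraries 3, 4 and 5 came from females and the other 6 libraries from males. The number of genes at 1 FPKM or more was 6867 to 7892 in the KO libraries and 6596 to 9852 in the i4F libraries (difference of means -398, exact permutation p = 0.579, two-sided, 5 against 5), and without i4F library 4 the difference was 79.7.

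Of 7733 genes tested, none passed limma's test at an adjusted p under 0.05 on either scale. As deposited the smallest adjusted p was 0.999, 104 genes (1.34%) had an unadjusted p under 0.05, and 33% of all genes had a positive fold change. Scaled, the smallest adjusted p was 0.144 (Creld2), 462 genes (5.97%) had an unadjusted p under 0.05, and 59.9% of fold changes were positive. The median gene stood at -0.06 as deposited and at 0.04 scaled. No statement below therefore rests on a gene that passed the test, and what follows gives values, their overlap and their spread. The count did not stay at 0 in every fit. The 4 male KO libraries against the 2 male i4F libraries gave 70 genes as deposited (69 higher, 1 lower) and 18 scaled (16 higher, 2 lower). In these male fits 2354 of 7733 genes had an unadjusted p under 0.05 as deposited and 1095 scaled. The 2 male i4F libraries, 1 and 2, also had the lowest scale factors of the 10 (0.78 and 0.75). They had the fewest genes at 1 FPKM or more (6696 and 6596), so sex and library scale cannot be told apart there. Weights per library gave 317 genes as deposited and 0 scaled.

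A separation of the KO libraries from the i4F libraries as a whole did not pass the test. Over the tested genes, scaled, 12.5% of the summed squared distance between libraries lay between the groups (exact permutation p = 0.262). The mean root mean squared log2 difference was 0.433 between pairs of KO libraries, 0.519 between pairs of i4F libraries and 0.486 between pairs of 1 library of each group. The difference of -0.0855 between the spreads within the groups had an exact permutation p of 0.119, two-sided, and as deposited it was -0.218 with a p of 0.0397. KO libraries 2 and 3 were the closest pair at 0.334 and i4F libraries 1 and 4 the most distant at 0.626. With 5 against 5 libraries the smallest p such a test can give is 0.00794.

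**Figure D1:**
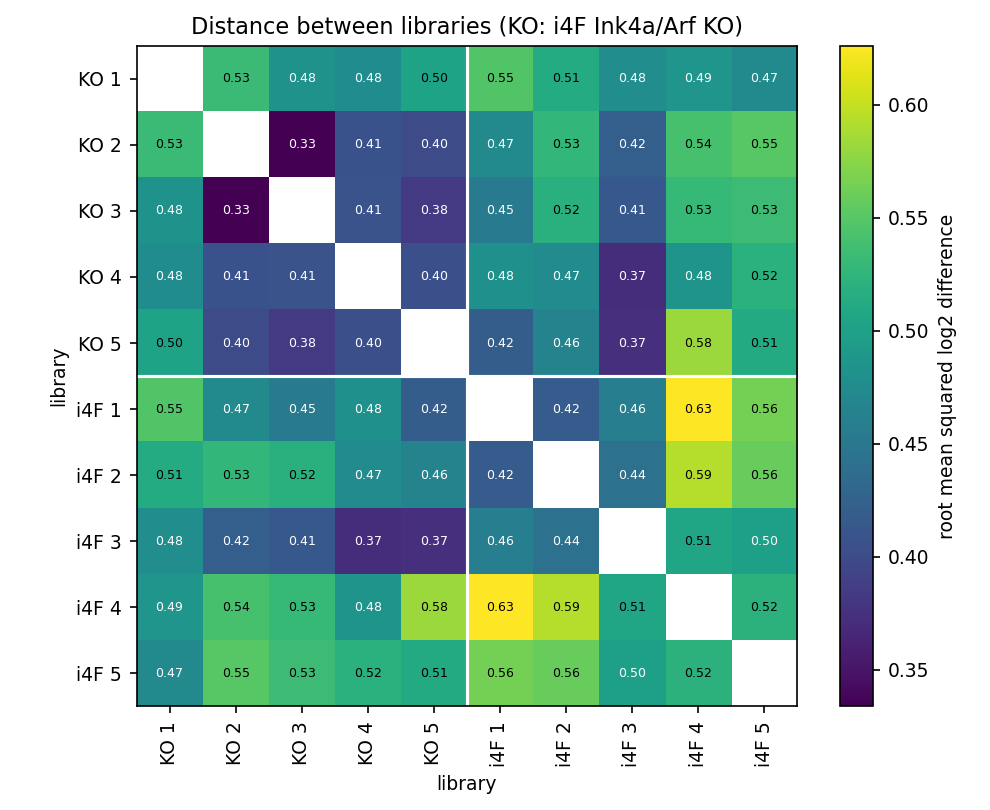
Distance between each pair of libraries as the root mean squared difference of log2(scaled FPKM + 1) over the 7733 tested genes; white lines divide the KO libraries (top and left) from the i4F libraries. KO libraries 2 to 5 lie close together, i4F library 3 lies as near to some of them (0.372 to KO library 4), and i4F libraries 1 and 4 are the most distant pair at 0.626.

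The deletion itself could not be checked at the level of the gene, because Cdkn2a (chromosome 4, 89274471 to 89294653, mm10) was near 0 in both groups. It measured 0, 0.112, 0, 0 and 0 FPKM in the KO libraries, against 0, 0, 0, 0.318 and 0.0684 FPKM in the i4F libraries. Cdkn2b, the neighbouring inhibitor p15Ink4b of the same kinases, measured 0.404, 0.213, 0.295, 0.542 and 0.187 FPKM in the KO libraries, against 0.0442, 0.089, 0.048, 0.897 and 0.238 FPKM in the i4F libraries. The i4F values lay both below and above the KO values, and i4F library 4 was the highest of all 10. In kidney, Cdkn2b measured 0.53 to 4.86 FPKM in KO kidneys and 0.332 to 1.71 FPKM in i4F kidneys, which overlapped. Its kidney fold change was 0.82 (SE 0.34, adjusted p = 0.624). Mtap (chromosome 4, 89137122 to 89181081), an enzyme of methionine salvage on the other side of Cdkn2a, measured 1.26 to 2.37 FPKM in the KO libraries and 1.17 to 2.99 FPKM in the i4F libraries, which overlapped.

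Klhl9 (chromosome 4, 88718292 to 88722465), an adaptor of a ubiquitin ligase on the same chromosome as Cdkn2a, had lower values. It measured 2.66, 1.75, 2.21, 2.06 and 1.90 FPKM in the KO libraries, against 2.28, 2.45, 2.77, 5.68 and 4.22 FPKM in the i4F libraries. Scaled, every KO library was below every i4F library, with a fold change of -0.38 (SE 0.10, adjusted p = 0.786), where as deposited the fold change was -0.47 (SE 0.20) and KO library 1 overlapped with i4F libraries 1 and 2. Of all tested genes, 0.388% had every KO library below every i4F library on the scaled values. Klhl9 also had every KO kidney below every i4F kidney, at 14.6, 17.3, 18.7, 17.1 and 16.7 FPKM in KO kidneys, against 22.6, 24.7, 19.7, 19.4 and 20.3 FPKM in i4F kidneys. The kidney fold change was -0.32 (SE 0.09, adjusted p = 0.605), and 1.2% of the 12074 kidney genes lay apart in this way.

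Some chaperones and folding factors of the ER had higher scaled values in KO pancreata, and none passed the adjusted threshold. Of 33 genes of the unfolded protein response and ER folding, 32 were tested. Scaled, 24 of the 32 had a positive fold change with a median of 0.18, against 59.9% positive and a median of 0.04 among all tested genes. The 8 negative members included the pancreatic disulfide isomerase Pdia2 (-0.12), the oxidases Ero1lb (-0.04) and Ero1l (-0.03), and the cochaperone Dnajb9 (-0.17). Of the 32, 8 had an unadjusted p under 0.05 in the higher direction, where 4.23% of all tested genes did, and 1 in the lower direction, where 1.75% did. In 6 of the 32 (Creld2, Sdf2l1, Hspa5, Hyou1, Calr and Syvn1) every KO library was above every i4F library, where 0.802% of all tested genes were. As deposited the same list had 18 positive members and a median of 0.07, with 33% positive among all genes. That median turned to -0.05 (14 positive) without i4F library 2 and to -0.02 (15 positive) without i4F library 1. Creld2, Hspa5 and Sdf2l1 were then the members with an unadjusted p under 0.05, all higher, where 0.336% of all tested genes were, and each of the 6 genes named above overlapped between the groups.

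Promoter windows are shown for the 3 folding genes with the smallest p, because the unfolded protein response is known to act through the ER stress response element, which reads CCAAT, 9 bases of any kind and CCACG. A shorter form, ATTGG, 1 base of any kind and CCACG, was searched as well. Both were searched on either strand, and no window held both forms. The windows run from 250 bases before to 50 after the RefSeq start of each gene (GRCm38.p6), read 5′ to 3′ along the gene, and capitals mark the fixed letters of a match. Creld2 lies at chr15:88819396-88819695 on the plus strand, Hspa5 at chr2:34771840-34772139 on the plus strand and Sdf2l1 at chr16:17132334-17132633 on the minus strand.
Creld2: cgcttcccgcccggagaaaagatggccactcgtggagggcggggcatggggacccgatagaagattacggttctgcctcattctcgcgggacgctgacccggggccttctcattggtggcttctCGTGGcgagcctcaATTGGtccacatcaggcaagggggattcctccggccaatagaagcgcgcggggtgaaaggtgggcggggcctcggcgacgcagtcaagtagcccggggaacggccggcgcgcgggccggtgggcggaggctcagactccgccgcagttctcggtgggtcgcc
Hspa5: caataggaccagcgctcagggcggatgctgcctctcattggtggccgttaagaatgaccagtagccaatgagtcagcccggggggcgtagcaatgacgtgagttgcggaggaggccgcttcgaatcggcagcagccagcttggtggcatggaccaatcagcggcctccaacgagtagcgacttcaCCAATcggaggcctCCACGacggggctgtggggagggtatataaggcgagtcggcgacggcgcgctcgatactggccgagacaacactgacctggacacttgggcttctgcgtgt
Sdf2l1: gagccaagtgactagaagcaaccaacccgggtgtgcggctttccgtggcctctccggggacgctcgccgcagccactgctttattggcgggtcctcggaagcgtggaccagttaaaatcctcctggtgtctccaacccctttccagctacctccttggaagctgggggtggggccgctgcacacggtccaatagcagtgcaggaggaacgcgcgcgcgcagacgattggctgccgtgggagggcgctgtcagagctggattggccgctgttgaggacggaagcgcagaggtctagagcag

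The longer element was present in 39 of 32851 promoter windows of all genes (0.119%) and the shorter in 12 (0.0365%). Of the 6 genes free of overlap, 5 had a window in the table, and 4 of these 5 (Creld2, Hspa5, Calr and Syvn1) held the longer element, on the reverse strand in Creld2 and Calr. The Sdf2l1 window held neither. Among the other tested genes of the list, 6 of 22 windows held either form. Of all 27 windows of tested list genes, 10 held either form. The list was made of genes of this response, and the 6 genes were picked by their values here. These counts therefore add no support, and a match describes these letters only.

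Creld2 (chromosome 15, 88819646 to 88826683), an ER protein that is induced by ER stress, had the smallest p of all genes scaled. It measured 67.3, 41.3, 46.1, 51.4 and 47.9 FPKM in the KO libraries, against 19.9, 20.2, 27.0, 44.2 and 37.8 FPKM in the i4F libraries. Scaled, it measured 65.3, 40.2, 49.2, 49.8 and 59.0 scaled FPKM in the KO libraries, against 25.6, 26.9, 25.7, 27.8 and 29.2 scaled FPKM in the i4F libraries. No KO value reached down to an i4F value on that scale, while as deposited i4F library 4 lay above KO library 2. The scaled fold change was 0.92 (SE 0.13, adjusted p = 0.144) and the deposited one 0.80 (SE 0.22). With each library left out in turn the scaled fold change ran from 0.84 to 1.01 and the adjusted p from 0.0522 to 0.669.

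Sdf2l1 (chromosome 16, 17130138 to 17132383), a partner of BiP that slows the aggregation of unfolded proteins, measured 83.4, 60.0, 74.6, 71.3 and 78.0 scaled FPKM in the KO libraries, against 50.3, 47.3, 48.6, 40.1 and 50.3 scaled FPKM in the i4F libraries. Its scaled fold change was 0.62 (SE 0.12, adjusted p = 0.607) and its deposited one 0.50 (SE 0.18). Hspa5 (chromosome 2, 34771970 to 34777547), the chaperone BiP at the centre of the response, measured 168, 123, 147, 129.7 and 159 scaled FPKM in the KO libraries, against 93.4, 83.0, 95.4, 98.9 and 97.6 scaled FPKM in the i4F libraries. The lowest KO library was still above the highest i4F library, and the fold change was 0.62 (SE 0.13, adjusted p = 0.607) scaled and 0.50 (SE 0.22) as deposited. Hspa5 in KO library 1, at 173 FPKM as deposited, stood far from the other KO libraries.

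Hyou1 (chromosome 9, 44379490 to 44392369), a large chaperone that exchanges the nucleotide of BiP, measured 36.3, 27.0, 28.0, 25.8 and 31.8 scaled FPKM in the KO libraries, against 17.7, 18.1, 19.9, 20.6 and 22.4 scaled FPKM in the i4F libraries. Its scaled fold change was 0.56 (SE 0.12, adjusted p = 0.607), with KO library 1 the highest. Calr (chromosome 8, 84841850 to 84846934), the lectin chaperone calreticulin, measured 90.3, 75.4, 87.8, 88.2 and 84.7 scaled FPKM in the KO libraries, against 51.9, 48.2, 52.1, 64.9 and 67.0 scaled FPKM in the i4F libraries, with a fold change of 0.59 (SE 0.13, adjusted p = 0.607). Syvn1 (chromosome 19, 6046576 to 6053712), the ubiquitin ligase Hrd1 that removes misfolded ER proteins, measured 23.0, 21.4, 20.8, 18.0 and 25.7 scaled FPKM in the KO libraries, against 15.8, 14.2, 17.9, 16.0 and 16.5 scaled FPKM in the i4F libraries, and the gap between the groups was small. Its fold change was 0.41 (SE 0.11, adjusted p = 0.786).

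Hsp90b1, the chaperone GRP94, and Manf, a secreted partner of BiP, had positive fold changes with overlap of single libraries. Their scaled fold changes were 0.56 (SE 0.14, adjusted p = 0.786) for Hsp90b1 and 0.50 (SE 0.14, adjusted p = 0.786) for Manf. The disulfide isomerase Pdia4 had 0.51 (SE 0.23) scaled, with i4F library 4 alone at 27.6 FPKM as deposited against at most 15.3 in the KO libraries. The sensors of the response had small fold changes of either sign: Ern1, the sensor IRE1, had a scaled fold change of -0.23 (SE 0.08, adjusted p = 0.786), Atf6 had -0.20 and Eif2ak3, the sensor PERK, had 0.09. Xbp1, the transcription factor made active by IRE1, had 0.15. Of the transcripts of the PERK branch, Atf4 had 0.22, Ddit3 had 0.06 and Chac1 had 0.24, all with an unadjusted p above the threshold. Of the degradation factors, Herpud1 had -0.10, Edem1 -0.18 and Sel1l 0.05.

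**Figure D2:**
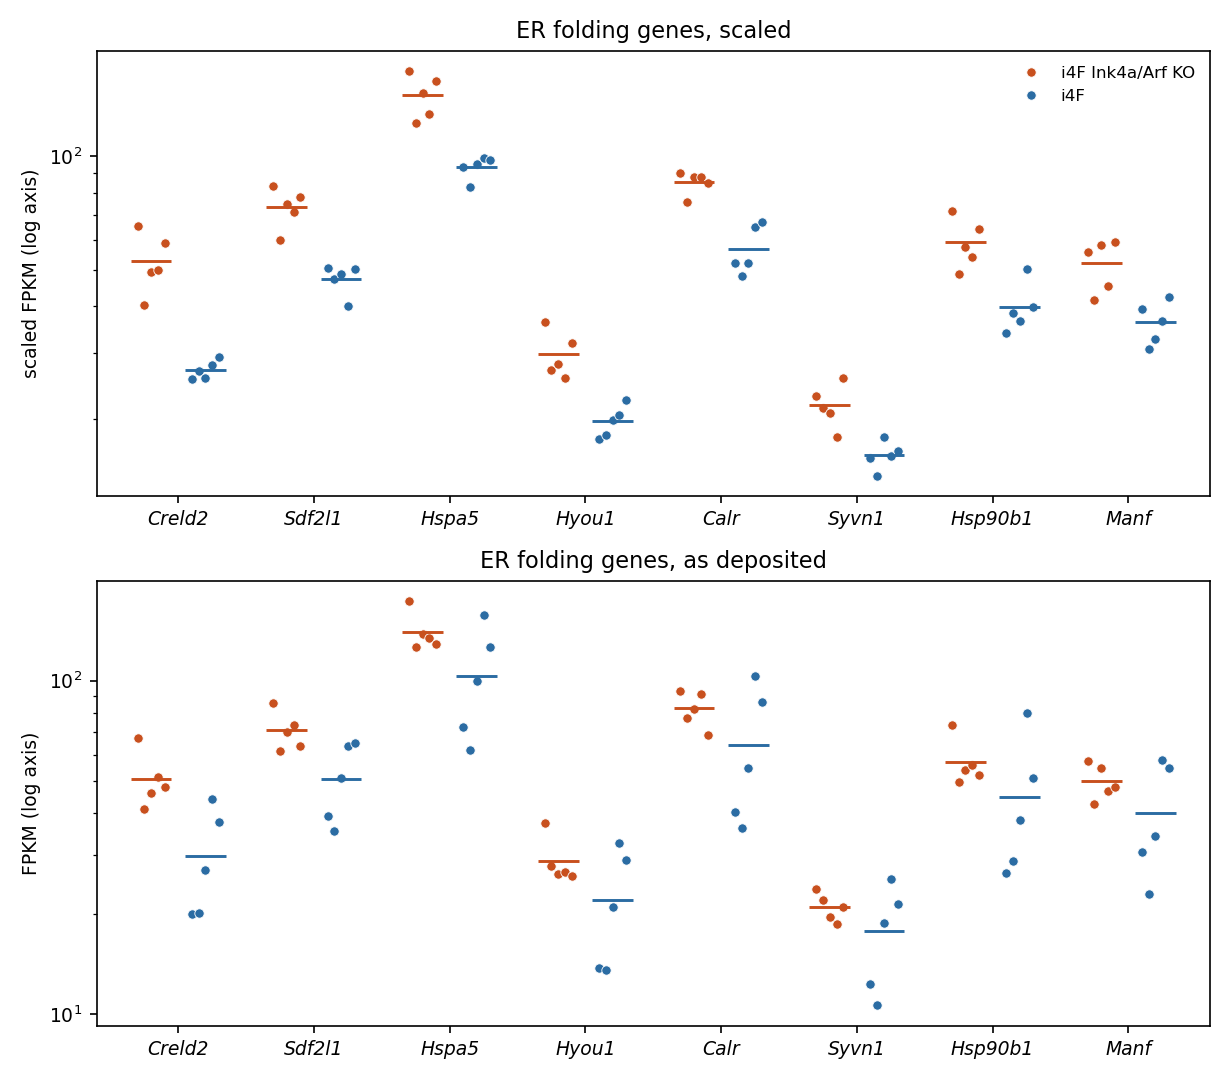
Levels of 8 ER folding genes by library, scaled (top) and as deposited (bottom), on log axes; orange points are KO libraries, blue points i4F libraries, ordered by replicate from left to right, and bars are group means. Scaled, the groups do not overlap for the 6 genes on the left (Creld2 to Syvn1), while as deposited every gene shown has overlap.

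Scaled, Hspa5 was 123 to 159 in the 4 male KO libraries against 83.0 and 93.4 in the 2 male i4F libraries, and 168 in the female KO library against 95.4 to 98.9 in the 3 female i4F libraries. Scaled Creld2 was 40.2 to 59.0 in male KO against 25.6 and 26.9 in male i4F libraries, and 65.3 in the female KO against 25.7 to 29.2 in female i4F libraries. These ranges add no support, since groups without overlap have none in any split. With the Xist level as a covariate Creld2 had a deposited fold change of 1.14 with an adjusted p of 0.0415, the only gene called in that fit, and the scaled fit with this covariate called none (smallest adjusted p = 0.0558). With any 1 library left out, 9 to 13 of 32 list members had an unadjusted p under 0.05 in either direction, scaled, against 9 with all 10. Over all tested genes such counts ran from 255 of 7651 without KO library 3 to 777 of 7566 without KO library 1. The list had 9 and 10 in those fits. The median of the list ran from 0.09 to 0.22. It was 0.09 without i4F library 4, with 22 positive members, and quantile normalization gave a median of 0.02 with 20 positive members.

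The kidneys of the same 2 genotypes gave values in the same direction for this list. The labels do not say whether kidneys and pancreata came from the same mice. The 2 i4F libraries numbered 3 did not. The kidney had male transcripts (Xist 0.0179, Ddx3y 5.03 FPKM) and the pancreas female ones (Xist 5.44, Ddx3y 0.00714 FPKM). Each tissue has a table of its own, and the difference between tissues was not tested. Of 12074 kidney genes none passed the adjusted threshold as deposited (smallest adjusted p = 0.424), 922 (7.64%) had an unadjusted p under 0.05, and 48.8% of fold changes were positive. Of the 30 list genes tested in kidney, 24 had a positive fold change with a median of 0.22, and 11 had an unadjusted p under 0.05, all higher, where 2.47% of all kidney genes did. After scaling the kidneys 24 stayed positive, with a median of 0.22, against a median of -0.00 for all kidney genes (48.5% positive). By Xist and Ddx3y, KO kidney 1 and i4F kidneys 4 and 5 came from females. KO kidney 1 was the highest kidney for Creld2, Sdf2l1, Hspa5, Hyou1, Calr, Hsp90b1, Manf and Pdia4. For Syvn1 it was the lowest KO kidney. The part of this kidney and of sex in the kidney values was not tested.

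Hspa5 measured 269, 231, 216, 169.8 and 241 FPKM in KO kidneys, against 141, 169.6, 149.7, 167 and 199 FPKM in i4F kidneys. Its kidney fold change was 0.44 (SE 0.13, adjusted p = 0.605). Hyou1 averaged 28.0 ± 4.95 FPKM in KO kidneys and 20.1 ± 1.71 FPKM in i4F kidneys (SD, n = 5 each), with a fold change of 0.44 (SE 0.12, adjusted p = 0.605). Syvn1 averaged 17.4 ± 1.35 FPKM in KO kidneys and 14.8 ± 0.572 FPKM in i4F kidneys, with 0.22 (SE 0.07, adjusted p = 0.605). Creld2 averaged 23.2 ± 5.04 FPKM in KO kidneys and 18.0 ± 2.24 FPKM in i4F kidneys, with 0.33 (SE 0.14, adjusted p = 0.63), and Calr 364 ± 43.4 FPKM in KO kidneys and 329 ± 27.0 FPKM in i4F kidneys, with 0.14 (SE 0.10, adjusted p = 0.744). All overlapped between the kidney groups, and of the 30 genes 1 (Sel1l, chosen here after its values were seen) had every KO kidney above every i4F kidney, where 0.555% of all kidney genes did. These kidneys also held transcripts of pancreatic acinar cells. Of 24 tested acinar genes none was positive and 21 had an unadjusted p under 0.05 in the lower direction, where 5.17% of all kidney genes did. The digestive enzyme Cel averaged 0.629 ± 0.77 FPKM in KO kidneys and 16.5 ± 27.4 FPKM in i4F kidneys. Every KO kidney was below every i4F kidney for Cel. The part of pancreatic transcripts in the kidney values was not tested.

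The p53 pathway lies downstream of p19Arf. Trp53 (chromosome 11, 69580359 to 69591873) measured 2.83, 2.91, 2.58, 4.16 and 1.97 FPKM in the KO libraries, against 1.94, 1.64, 3.01, 6.99 and 3.44 FPKM in the i4F libraries. The groups overlapped, as did Mdm2, the ubiquitin ligase that limits p53, at 1.88 to 2.62 FPKM in the KO libraries and 1.48 to 4.35 FPKM in the i4F libraries. Of 41 p53 target genes, 27 were tested, and 20 of these were positive scaled with a median of 0.18, or 17 as deposited with a median of 0.07, where 59.9% and 33% of all tested genes were positive. The deposited median turned to -0.05 (11 positive) without i4F library 2 and to -0.02 (13 of 27 positive) without i4F library 1, and was 0.21 without i4F library 4. In the scaled values 4 had an unadjusted p under 0.05 in the higher direction (Bax, Zmat3, Aen and Ptp4a3), where 4.23% of all tested genes did, and 2 in the lower (Sesn1 and Ddb2), where 1.75% did, and none was free of overlap.

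Cdkn1a (chromosome 17, 29090976 to 29100727), the kinase inhibitor p21 and the best known p53 target, had a wide spread in i4F. It measured 18.1, 19.1, 15.4, 23.1 and 9.51 FPKM in the KO libraries, against 2.34, 2.18, 28.3, 35.9 and 8.10 FPKM in the i4F libraries. The 5 KO libraries lay between the extremes of i4F, where libraries 1 and 2 were low and libraries 3 and 4 high. The fold change was 0.79 (SE 0.60) as deposited and 0.93 (SE 0.53, adjusted p = 0.824) scaled. Library weights turned the deposited fold change to -0.47. There i4F library 3, at 28.3 FPKM, had a weight of 12.4 and the other i4F libraries 0.211 to 0.43. i4F libraries 1 and 2 are also the 2 male ones, so in i4F sex and level cannot be told apart: among males the scaled fold change was 2.13 (adjusted p = 0.0172, 4 KO against 2 i4F libraries, with libraries chosen by sex after the data were seen). In that scaled male fit 1095 of 7733 genes had an unadjusted p under 0.05. The single female KO library, at 18.1 FPKM, lay within the 8.10 to 35.9 FPKM of the female i4F libraries.

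Bax (chromosome 7, 45461697 to 45466898), which opens the outer mitochondrial membrane in apoptosis, measured 9.71, 14.6, 13.5, 18.5 and 14.3 FPKM in the KO libraries, against 6.02, 6.6, 12.1, 12.7 and 9.15 FPKM in the i4F libraries. Of the KO libraries all but replicate 1 were above every i4F library, and the scaled fold change was 0.69 (SE 0.17, adjusted p = 0.786). Sesn1 (chromosome 10, 41809935 to 41908424), an inhibitor of the mTORC1 kinase under amino acid shortage, measured 5.82, 3.13, 2.73, 3.90 and 4.24 FPKM in the KO libraries, against 4.17, 4.14, 11.9, 15.6 and 6.39 FPKM in the i4F libraries. Its scaled fold change was -0.68 (SE 0.23, adjusted p = 0.786). Ddb2, a subunit that recognises ultraviolet damage, had -0.29 (SE 0.10, adjusted p = 0.786). In kidney 25 of 37 tested p53 targets were positive with a median of 0.08, and 5 had an unadjusted p under 0.05, all higher, where 2.47% of all kidney genes did. The kidney fold changes were 0.26 (SE 0.09, adjusted p = 0.605) for Zmat3, 0.45 (SE 0.48, adjusted p = 0.864) for Cdkn1a, -0.07 (SE 0.12, adjusted p = 0.917) for Bax and 0.08 (SE 0.15, adjusted p = 0.933) for Sesn1.

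The induced factors were low in the pancreas of both groups. Pou5f1, which is silent in adult tissue without the cassette, measured 0.568, 0.649, 1.55, 1.91 and 0.0456 FPKM in the KO libraries, against 0.236, 0, 0.832, 1.14 and 1.13 FPKM in the i4F libraries. KO libraries 3 and 4 were the highest and KO library 5 and i4F library 2 the lowest. Sox2 measured 0.359, 0.349, 0.437, 0.607 and 0.0335 FPKM in the KO libraries, against 0.0509, 0, 0.202, 0.167 and 0.366 FPKM in the i4F libraries. For Sox2, 2 KO libraries were above every i4F library as deposited and 4 scaled, at values near the floor. Klf4 measured 1.32 to 2.47 FPKM in the KO libraries and 1.07 to 3.27 FPKM in the i4F libraries, with a scaled fold change of 0.11 (SE 0.13, adjusted p = 0.889), and Myc 6.96, 6.16, 7.14, 6.96 and 4.93 FPKM in the KO libraries, against 3.99, 3.82, 6.74, 11.1 and 6.86 FPKM in the i4F libraries. As deposited, Myc was lowest in i4F libraries 1 and 2 and highest in i4F library 4. Scaled, the same 2 libraries were lowest, and KO library 3 was highest at 7.61 scaled FPKM, against 6.98 in i4F library 4. The scaled fold change of Myc was 0.17 (SE 0.10, adjusted p = 0.828). The pluripotency gene Nanog stayed at or below 0.153 FPKM in all 10 libraries, and Il6 was listed at 0 in 9 of them and at 0.0406 FPKM in i4F library 4.

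**Figure D3:**
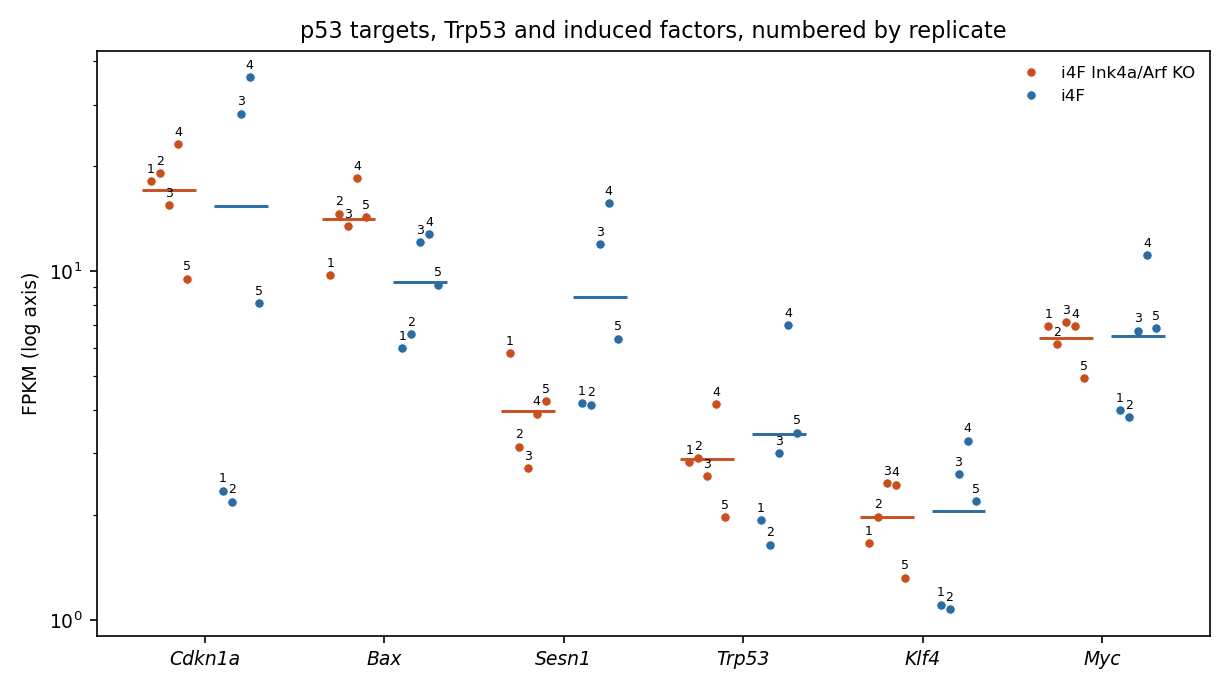
Deposited FPKM of Cdkn1a, Bax, Sesn1, Trp53, Klf4 and Myc by library on a log axis; orange points are KO libraries, blue points i4F libraries, numbers are replicates and bars group means. i4F libraries 1 and 2, which had the lowest scale factors (0.78 and 0.75), lie at the bottom for every gene shown but Sesn1. Cdkn1a ran from 2.18 to 35.9 FPKM in i4F.

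Of 19 kinase inhibitors and genes of the Rb pathway 9 were tested, with 4 positive scaled and a median of -0.12. Cdk4, a kinase that p16Ink4a inhibits, measured 9.75 to 15.5 FPKM in the KO libraries and 8.71 to 18.7 FPKM in the i4F libraries, and Ccnd1, cyclin D1, 1.84 to 3.37 FPKM in the KO libraries and 1.75 to 6.97 FPKM in the i4F libraries. Of 33 genes of DNA replication 9 were tested, 2 positive, with a median of -0.07. No gene of 29 for mitosis reached 1 FPKM in 5 libraries, and their summed level was 27.7, 4.14, 2.84, 11.8 and 3.10 FPKM in the KO libraries, against 3.92, 3.10, 4.41, 14.3 and 7.18 FPKM in the i4F libraries. KO library 1 was the highest for 22 of the 29, and the next highest sums were in i4F library 4 and KO library 4. Neutrophil sums were highest in the same 3 libraries.

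**Figure D4:**
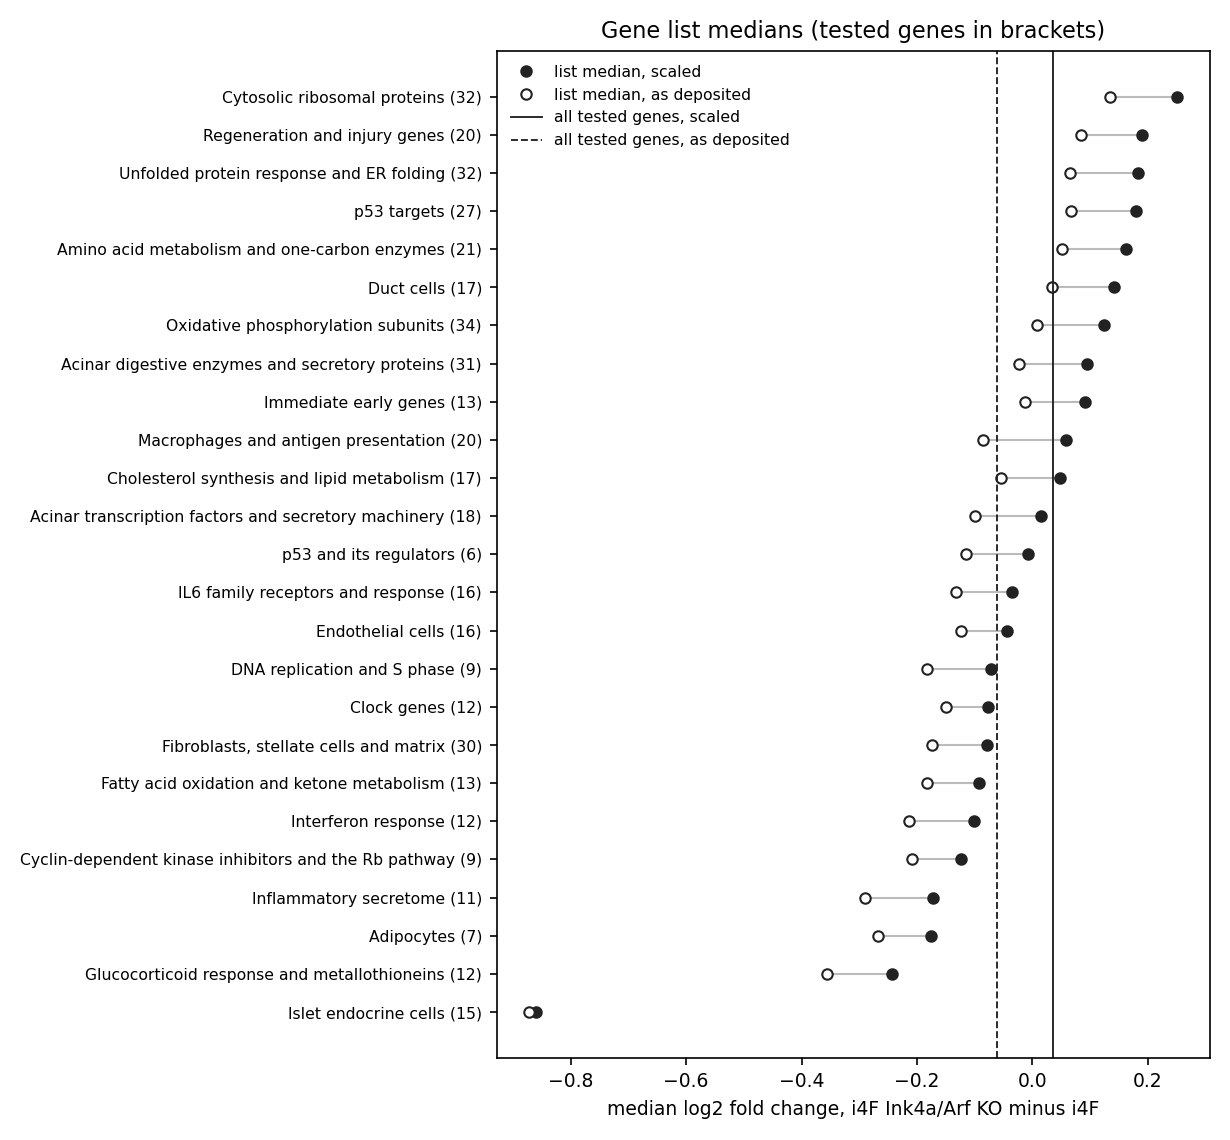
Median log2 fold change (KO minus i4F) of each gene list with at least 5 tested genes; filled points are scaled and open points as deposited, and lines mark the median of all 7733 tested genes. Ribosomal, regeneration, ER folding and p53 target lists lie to the right of the all-gene median on both scales. So do the amino acid, duct, oxidative phosphorylation, acinar enzyme, immediate early and cholesterol lists. The islet list lies farthest left.

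Acinar transcripts made up most of the FPKM in both groups. Digestive enzymes and secretory proteins of the acinar list summed to 69.7 to 82.4% of all FPKM in the KO libraries and 71.6 to 84.2% in the i4F libraries. These sums take in genes listed at 0, of which 3 (Ctrb1, Cela2a and Amy2b) are at 0 in all 10 libraries. Some of the most abundant transcripts are listed at 0 in single libraries and give no usable comparison: Prss2 and Cpa1 in i4F library 5, which had the 71.6%, Cela1 in i4F library 1, and Pnlip in 3 KO and 5 i4F libraries. Of the acinar list 31 genes were tested and 24 were positive scaled, 15 as deposited, none with an unadjusted p under 0.05. Ptf1a, the transcription factor that sets acinar fate, measured 25.1, 24.1, 29.9, 20.3 and 27.1 FPKM in the KO libraries, against 21.2, 21.0, 24.9, 38.8 and 25.3 FPKM in the i4F libraries. Its coactivator partner Rbpjl measured 41.4, 51.2, 27.4, 40.1 and 44.1 FPKM in the KO libraries, against 47.1, 40.7, 70.1, 54.7 and 70.2 FPKM in the i4F libraries, with a scaled fold change of -0.34 (SE 0.20) and a deposited one of -0.45 (SE 0.20). The arginine transporter Slc7a2 had -0.30 (SE 0.13) scaled.

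The regenerating islet-derived proteins, secreted by acinar cells on injury, varied widely among mice. Reg3b (chromosome 6, 78370657 to 78373466) measured 867, 20465, 39443, 7089 and 3382 FPKM in the KO libraries, against 2677, 658, 561, 1709 and 4108 FPKM in the i4F libraries. KO library 3 was the highest of the 10, KO libraries 2, 3 and 4 were above every i4F library, and KO library 1 was below i4F libraries 1, 4 and 5. The fold change was 2.37 (SE 0.93, adjusted p = 0.81) scaled and 2.25 (SE 0.85) as deposited. Reg3a measured 119, 4345, 9084, 1862 and 376 FPKM in the KO libraries, against 889.7, 175, 165, 517 and 975 FPKM in the i4F libraries. Reg3g measured 29.5, 631, 2025, 220.5 and 537 FPKM in the KO libraries, against 108, 34.7, 29.0, 193 and 407 FPKM in the i4F libraries. KO library 3 was the highest and KO library 2 the next for all 3 genes. The same 2 libraries were highest for Reg2, at 5320 to 61054 FPKM in the KO libraries and 7987 to 28329 FPKM in the i4F libraries. The scaled fold change of Reg2 was 0.42 (SE 0.64, adjusted p = 0.913). Reg1 measured 29517 to 42838 FPKM in the KO libraries and 29180.1 to 45682 FPKM in the i4F libraries, without such spread.

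Duct genes gave a mixed picture. Of 17 tested, 12 were positive scaled with a median of 0.14. Krt8, a keratin of simple epithelia, had 0.61 (SE 0.26, adjusted p = 0.81), and Krt19, the keratin of duct cells, measured 13.5, 34.3, 26.0, 69.4 and 24.6 FPKM in the KO libraries, against 9.84, 8.06, 41.1, 27.6 and 15.3 FPKM in the i4F libraries. The scaled fold change of Krt19 was 0.86 (SE 0.41, adjusted p = 0.81). Library weights turned the deposited fold change of Krt19 to -0.12, where i4F library 3, at 41.1 FPKM, had a weight of 12.4. Bicc1, an RNA-binding protein of ducts, was below every i4F library in every KO library on the scaled values, at 0.953 ± 0.0894 scaled FPKM in the KO libraries and 1.36 ± 0.143 in the i4F libraries (SD, n = 5 each), with -0.28 (SE 0.07, adjusted p = 0.786). Sox9, the transcription factor of ducts, measured 1.24 to 2.48 FPKM in the KO libraries and 0.781 to 3.20 FPKM in the i4F libraries, and these groups overlapped.

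Islet hormones varied widely among the mice of each group. Ins2 (chromosome 7, 142678656 to 142743381), insulin, measured 274, 50.6, 99.8, 4181 and 629 FPKM in the KO libraries, against 852, 2893, 1365, 207 and 1534 FPKM in the i4F libraries. Gcg (chromosome 2, 62474530 to 62483650), glucagon, measured 16.5, 1.67, 3.44, 184 and 28.4 FPKM in the KO libraries, against 44.1, 169, 122, 12.9 and 121 FPKM in the i4F libraries. The 7 endocrine genes Ins1, Ins2, Gcg, Sst, Ppy, Iapp and Chga were, as deposited, all highest in KO library 4 and all next highest in i4F library 2, and 6 of the 7 were lowest in KO library 2. Scaled, i4F library 2 was the highest for Gcg, Iapp and Ppy. The fold change was -1.51 (SE 1.14, adjusted p = 0.828) for Ins2 and -1.99 (SE 1.11, adjusted p = 0.824) for Gcg, scaled, and with 1 library left out it ran from -2.41 to -0.82 for Ins2 and from -2.84 to -1.32 for Gcg, the most negative without KO library 4 and the least without KO library 2. Of 15 tested islet genes 14 were negative scaled, with a median of -0.86, and all 15 as deposited, with -0.87, and none was free of overlap on the scaled values. In whole tissue, fewer cells of a type and less RNA per cell cannot be told apart. Leaving out KO library 4 put the scaled median at -1.39 and 9 of 14 genes at an unadjusted p under 0.05, against 0 of 15 with all libraries. In that fit 369 of all 7566 genes had such a p. Without i4F library 2 the scaled median was -0.55, and without KO library 2 it was -0.59.

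Transcripts of blood and lymphoid cells were concentrated in single libraries. Summed lymphocyte markers measured 16.9, 7.10, 4.15, 33.4 and 3.11 FPKM in the KO libraries, against 2.47, 2.89, 5.16, 376 and 10.8 FPKM in the i4F libraries. i4F library 4 was highest for 20 of the 21, with the B-cell genes Cd79a at 34.0 and Ms4a1 at 12.8 FPKM against at most 2.55 and 0.751 FPKM elsewhere. The same library was highest for 34 of 35 fibroblast and matrix genes and 17 of 19 adipocyte genes. These counts are as deposited, where i4F library 4 had the largest scale factor (1.59) and the most genes at 1 FPKM or more (9852). It was also highest for 28 of 32 interferon response genes and 20 of 34 subunits of oxidative phosphorylation, but for 0 of 32 acinar list genes above 0. The share over all genes was not computed. Neutrophil markers summed to 415, 5.22, 5.48, 30.9 and 1.49 FPKM in the KO libraries, against 2.2, 1.93, 2.06, 261 and 3.21 FPKM in the i4F libraries, high in KO library 1 and i4F library 4. Erythroid markers summed to 719.9, 24.5, 47.9, 176 and 61.7 FPKM in the KO libraries, against 44.2, 55.8, 37.9, 39.2 and 37.4 FPKM in the i4F libraries.

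KO library 1 was highest for 8 of the 9 erythroid genes. The globin gene Hbb-b2 measured 173, 3.46, 5.59, 17.6 and 10.5 FPKM in the KO libraries, against 6.20, 1.42, 5.53, 5.34 and 0.0025 FPKM in the i4F libraries, and its fold change of 2.16 (SE 0.88) became 1.33 without that library. The part of these cells in other results was not tested. Of the folding genes, scaled Creld2, Sdf2l1, Hspa5, Hyou1 and Calr were highest in KO library 1. Without that library the scaled fold change was 0.84 for Creld2 and 0.57 for Hspa5.

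**Figure D5:**
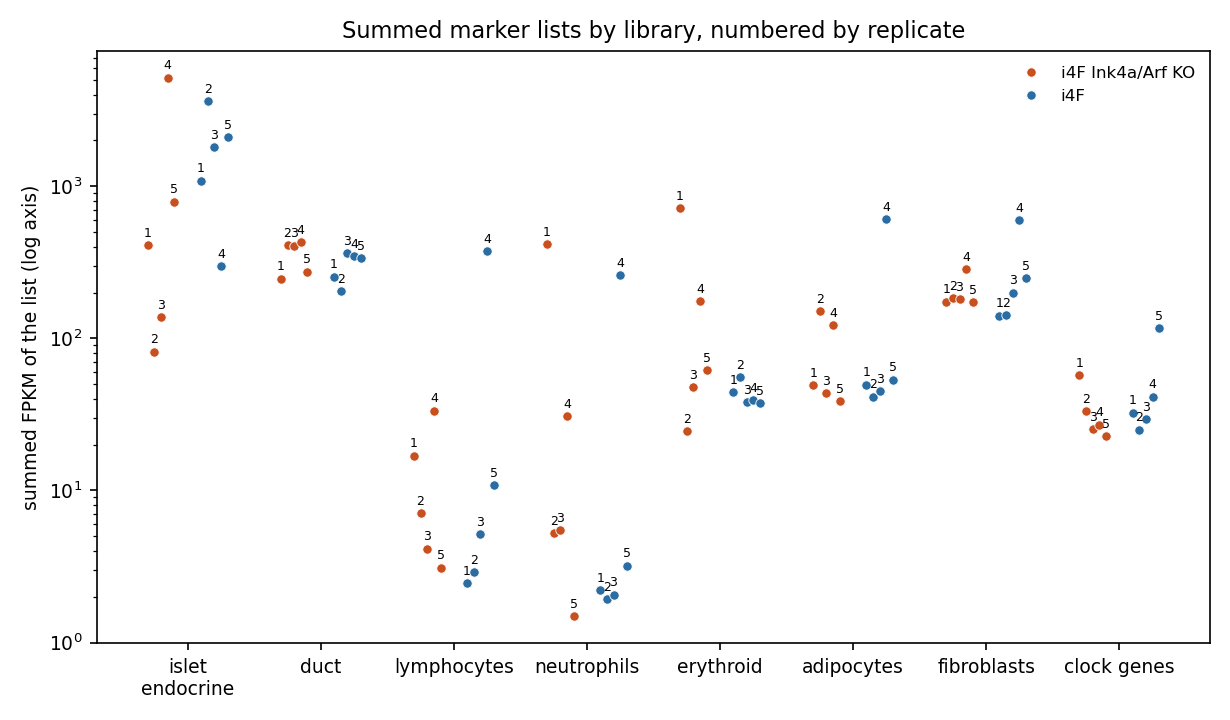
Summed FPKM of 8 gene lists by library on a log axis; orange points are KO libraries, blue points i4F libraries, and numbers are replicates. Islet sums range widely in both groups, lymphocyte and adipocyte sums are highest in i4F library 4, erythroid and neutrophil sums in KO library 1, and clock genes in i4F library 5.

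Clock genes also set single mice apart. Dbp, a transcription factor with a strong daily rhythm, measured 0.56, 0.856, 0.519, 0.82 and 0.861 FPKM in the KO libraries, against 2.55, 1.04, 0.869, 0.486 and 25.0 FPKM in the i4F libraries. i4F library 5 was the highest by far and was also the lowest for Arntl, the clock activator whose rhythm runs opposite, at 0.0998 FPKM against 1.26 to 3.26 FPKM in the other i4F libraries. The time of day of the dissections is not given in the labels used here. Nfil3 (chromosome 13, 52967209 to 52981073), a repressor of the D-box elements that Dbp activates, measured 2.86, 4.67, 2.95, 2.83 and 2.28 FPKM in the KO libraries, against 0.625, 1.47, 1.43, 3.26 and 0.832 FPKM in the i4F libraries. Scaled, every KO library was above every i4F library, with 0.86 (SE 0.18, adjusted p = 0.607). Nr1d2, the repressor Rev-erb beta, measured 1.45, 1.36, 1.16, 0.846 and 1.21 FPKM in the KO libraries, against 2.73, 2.35, 1.14, 1.88 and 11.6 FPKM in the i4F libraries. Its scaled fold change was -0.78 (SE 0.35, adjusted p = 0.81), and without i4F library 5, the highest, it was -0.43. Of the 12 clock genes tested 6 were positive and 6 negative, scaled.

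Ribosomal protein genes had small positive fold changes: 31 of 32 were positive scaled, with a median of 0.25, and 30 as deposited, with 0.13. None of the 32 had an unadjusted p under 0.05 on either scale. Subunits of oxidative phosphorylation were positive in 32 of 34 scaled (median 0.12) and in 19 as deposited (median 0.01). Fatty acid oxidation genes were negative in 9 of 13 scaled, with a median of -0.09. Cpt1a, which brings long-chain fatty acids into mitochondria, had -0.35 (SE 0.15, adjusted p = 0.81). Fibroblast and matrix genes were negative in 24 of 30 and adipocyte genes in 7 of 7, scaled. As deposited, i4F library 4 was the highest library for most of them.

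Among all genes, those with the smallest p and a negative fold change as deposited included Ifrd1. Ifrd1 (chromosome 12, 40201567 to 40248504), a co-regulator of transcription, measured 27.9, 36.1, 32.8, 26.9 and 33.2 FPKM in the KO libraries, against 41.9, 40.2, 43.0, 57.1 and 67.4 FPKM in the i4F libraries. As deposited every KO library was below every i4F library, where 0.194% of all tested genes were, with a fold change of -0.63 (SE 0.17), or -0.52 (SE 0.16) scaled with overlap. Bckdhb, a subunit of the enzyme that breaks down branched-chain amino acids, had -0.43 (SE 0.14), Stard3, a cholesterol carrier of endosomes, -0.47 (SE 0.16), and Lrch4 -0.49 (SE 0.17). These 3 were also below every i4F library as deposited and not scaled. Itih2 had -0.57 (SE 0.17), Cldn10, a tight-junction protein, -0.55 (SE 0.18), and Cirbp, a cold-inducible RNA-binding protein, -0.61 (SE 0.21). Scaled, Itih2 had -0.51 (SE 0.15), Cldn10 -0.43 (SE 0.23) and Cirbp -0.51 (SE 0.25).

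Nnt, the mitochondrial transhydrogenase that supplies NADPH and that is known to carry a deletion in the C57BL/6J substrain, measured 6.52, 4.20, 3.53, 5.59 and 4.8 FPKM in the KO libraries, against 7.38, 7.35, 6.26, 8.04 and 11.4 FPKM in the i4F libraries. Of the KO libraries all but replicate 1 were below every i4F library, with a fold change of -0.61 (SE 0.18) as deposited and -0.52 (SE 0.19) scaled. In kidney it measured 56.7, 35.2, 30.2, 41.9 and 58.6 FPKM in KO kidneys, against 81.5, 81.0, 71.6, 58.6 and 62.0 FPKM in i4F kidneys. Every KO kidney was below every i4F kidney, with a fold change of -0.69 (SE 0.19, adjusted p = 0.605), although the highest KO and the lowest i4F kidney differ only in the fourth digit. The labels give C57BL/6 for all mice and no substrain.

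On the higher side, Ubb (chromosome 11, 62551171 to 62553213), a polyubiquitin gene, measured 58.2, 62.1, 55.3, 60.8 and 58.4 FPKM in the KO libraries, against 45.6, 41.3, 47.8, 50.3 and 48.1 FPKM in the i4F libraries. As deposited every KO library was above every i4F library, where 0.0388% of all tested genes were, with a fold change of 0.33 (SE 0.12), and the scaled groups overlapped at 0.45 (SE 0.17). Hsd11b1, which makes active glucocorticoid, had 0.41 (SE 0.15) as deposited and overlapped. In kidney Ubb had -0.08 (SE 0.11, adjusted p = 0.897). The small nucleolar RNA gene Snord104 measured 934, 379, 664, 347 and 587 FPKM in the KO libraries, against 0, 0, 575, 0 and 123 FPKM in the i4F libraries, and because it is listed at 0 in 3 i4F libraries no fold change is given.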

How the data were processed

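Poly(A) RNA was sequenced as stranded libraries, per the labels' protocols; the depth of single libraries and genes is unknown, so no counting interval was computed. The authors gave each gene an FPKM, deposited in a pancreas table of 19685 rows and a kidney table. The submitters' processing notes name TopHat2 2.0.10, Bowtie 1.0.0, SAMtools 0.1.19, Cufflinks 2.2.1 and mm10; further scaling is not stated. Here log2(FPKM + 1) was fitted with limma 3.58.1 in R 4.3.3 (trend, two-sided, Benjamini-Hochberg adjusted p under 0.05), for genes that reached 1 FPKM in 5 or more libraries, as deposited and after median-of-ratios scaling over 13220 genes above 0 in all 10. Single values used exact permutation tests. The 36 gene lists hold 836 genes; 28 of 855 entries did not match. Named genes were a set always shown, the 8 smallest p in each direction with at least 2 FPKM and no library at 0, and up to 3 per list. Members of the ER list, Reg2, Reg3a, Dbp and single-library markers were named after their values were seen. A few genes are not reported here. Members and lists were chosen with earlier results of these data known. Positions come from GENCODE M21 and promoters from RefSeq, both GRCm38. Replicate numbers were not used as pairs in the main fits. Libraries of the same number had correlations of deviations from -0.243 to 0.11, and a shared litter or batch was not tested. Fits were tested on simulated data. The libraries are 1 per mouse.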

Additional observations from a re-analysis of the deposited data

Results flagged for a closer look

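Among 80 sets of 5 values looked at, 12 had a single library far from the other 4 of its group, judged by its gap to the nearest value as a share of the range (Dixon's critical value 0.71); chance alone flags about 1 in 20. In the KO group, library 1 stood apart for Hspa5 at 173 FPKM, for Hyou1 at 37.4 FPKM, for Hsp90b1 at 73.5 FPKM and for Hbb-b2 at 173 FPKM. KO library 4 stood apart for Ins2 at 4181 FPKM and Gcg at 184 FPKM, and KO library 2 for Nfil3 at 4.67 FPKM.

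In i4F, library 4 stood apart for Pdia4 at 27.6 FPKM and Lrch4 at 4.90 FPKM. Library 5 stood apart for Nr1d2 at 11.6 FPKM and Slc7a2 at 4.38 FPKM, and library 3 for Snord104 at 575 FPKM.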

How the results depend on the processing

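No gene was called as deposited or scaled under another pseudocount (0.1), no filter, a filter of 5 FPKM, quantile normalization, robust variances, all 15 pancreas libraries, the replicate block (0 genes on both scales), leaving out genes listed at 0, or leaving out each library (0 to 0). As deposited, library weights gave 317 genes (97 higher, 220 lower; i4F library 3 had a weight of 12.4), the Xist covariate 1 and males alone, added after seeing the data, 70; scaled, males alone gave 18. The cause was not tested. In kidney the replicate block gave 9 genes and leaving out single libraries 0 to 2.

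The share of distance between groups was 8.82 to 16.6% in all alternatives (11.5 to 16.6% with 1 library left out). The spread within KO minus within i4F was -0.218 as deposited and -0.129 to -0.0569 with 1 library left out; without i4F library 3 it was -0.114 (exact permutation p = 0.0159). The difference in genes at 1 FPKM ran from -734 to 79.7 with 1 library left out. For the 37 genes with a fold change followed here, 1561 of 1600 values kept direction and side of the threshold, 37 passed it with the direction kept, and 2 reversed, both as deposited with library weights: Cdkn1a at -0.47 and Krt19 at -0.12. With 5 mice a group and no read counts, small differences could not be resolved.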
